A study of Mus musculus with 36 samples.

Results

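The 7 genes described here make, sense, convert or bind thyroid hormone and its releasing peptide: Trh, Trhr, Dio2, Dio3, Crym, Thra and Thrb. They were taken by symbol from a table of 19025 genes, and all 7 were found. The set was chosen by measured values of this study, in which Trhr stood out in PFc and Dio3 and Crym in SN between genotypes. Their differences between genotypes are therefore given as a description, with standard errors and without a test. Levels across regions are tested for the other 4 genes, Trh, Dio2, Thra and Thrb.

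The study sequenced messenger RNA from brain tissue of adult C57 mice aged 6 to 7 weeks, in 6 dissected regions that the labels abbreviate as HP, PFc, Nac, STR, SN and VTA. Wild-type mice (WT) were set against knock-in mice (KI) with an altered Maoa, the gene of monoamine oxidase A. The series describes the change as synonymous and gives no zygosity. Each genotype and region has 3 libraries, 18 WT and 18 KI, and no other allele or agent is named. Whether the 3 come from different animals is not labelled, so each p-value reflects how far these libraries scatter, and that scatter may be technical.

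Thyroid hormone reaches the brain mostly as thyroxine, carried across membranes by transporters such as Slco1c1. Dio2, a selenoenzyme found mainly in astrocytes and tanycytes, converts it to the active hormone triiodothyronine, and Dio3, found mainly in neurons, inactivates both. Crym encodes mu-crystallin, which binds triiodothyronine in the cytoplasm, while Thra and Thrb encode the nuclear receptors through which the hormone controls transcription. Trh encodes the precursor of thyrotropin-releasing hormone, which starts the thyroid axis from the hypothalamus and acts as a neuropeptide elsewhere in the brain through the receptor Trhr.

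Libraries held between 15145631 and 18863503 estimated counts. Maoa lay between 34.0 and 78.0 CPM, counts scaled to the library total, in the 18 WT libraries and between 37.7 and 97.4 CPM in the 18 KI libraries. A score for each region, the mean log2 CPM of its marker genes, placed 8 libraries (2 WT and 6 KI) on the far side of the midpoint between their own region and the others. WT Nac 2 and KI Nac 1 scored 5.50 and 7.11 on dopamine neuron markers, and KI Nac 2 scored 6.48 on hippocampal markers. WT VTA 3, KI HP 2 and KI SN 2 scored 7.53, 8.17 and 8.23 on striatal markers. WT STR libraries scored 6.5 to 8.26 and WT Nac 1 and 3 scored 7.60 each, so these markers do not tell Nac from STR. On thalamic markers WT VTA 3, KI HP 2 and KI SN 2 scored 2.83, 2.55 and 2.80. WT Nac 1 and 3 scored 3.07 and 3.06 there, and WT STR 5.11 to 6.22. KI SN 1 scored 0.19 on its own dopamine markers and 4.48 on hippocampal ones, and KI STR 3 was low in striatal markers at 4.59 and highest of all in hypothalamic ones at 3.20. KI PFc 1 passed its own markers but scored 6.57 on striatal ones, and KI SN 3 passed with a striatal score of 5.36. WT SN 2 passed with a cortical score of 4.62, against 2.57 and 1.62 in WT SN 1 and 3. Fold changes of the 7 genes are given with and without the 8 libraries, and KI PFc 1 in PFc, where they enter. KI SN 3 and WT SN 2 were kept. Other values are from all libraries unless stated, and in bulk tissue fewer cells of a type cannot be told apart from less RNA per cell.

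**Figure D1:**
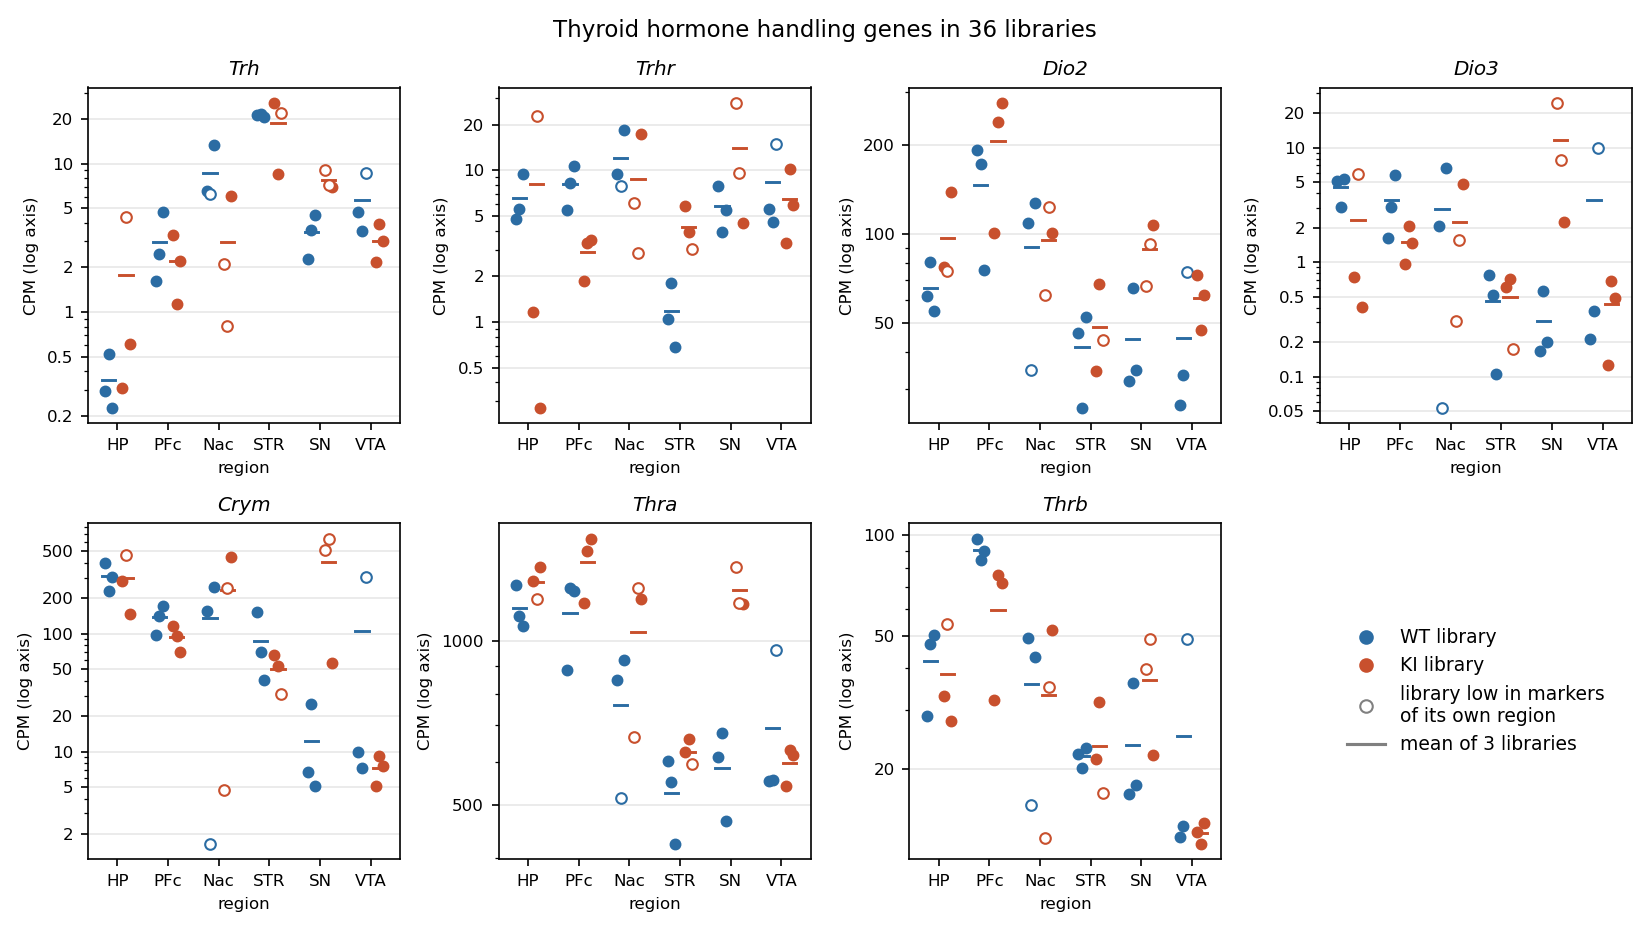
CPM of each gene on a log axis (vertical) in the 6 regions (horizontal), 1 point per library, WT blue and KI orange, with a line at the mean of 3 libraries. Open points are the 8 libraries low in markers of their own region; in KI SN, for example, open points hold the 2 highest Dio3 values, 24.6 and 7.81 CPM.

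Trh lies on chromosome 6 between 92242061 and 92244650 (GRCm38.p6, NCBI gene 22044). Its coding sequence holds 5 copies of the codons for Gln-His-Pro-Gly, from which the tripeptide hormone is cut and amidated. They are shown because each copy makes 1 hormone molecule, so 1 transcript counted here stands for several peptides. Capitals mark the 12 bases of the repeat, and the codon pair on each side, in lower case, codes for the basic residues at which the precursor is cut. The first and the last copy read, 5′ to 3′ on the gene's strand:

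Trh copy 1, chr6:92243088-92243111: aaacgcCAGCATCCGGGCaaaagg
Trh copy 5, chr6:92242710-92242733: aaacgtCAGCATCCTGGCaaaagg

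Trh was highest in STR and lowest in HP. The WT STR libraries held 21.4, 21.5 and 20.6 CPM, and the WT HP libraries 0.296, 0.525 and 0.226 CPM, from 4 to 9 counts. No library of another WT region reached STR: Nac held 6.55, 6.2 and 13.3 CPM, VTA 4.75, 3.54 and 8.66 CPM, SN 2.28, 3.56 and 4.49 CPM and PFc 1.63, 2.46 and 4.75 CPM. PFc, SN and VTA overlapped, so the order among them lies within the spread of their libraries. All 6 STR libraries also carried thalamic markers (scores 5.11 to 6.22 in WT and 5.12 to 5.98 in KI, against at most 4.70 in every other library) and choroid plexus markers (5.32 to 7.70, against at most 5.06). The part of either tissue in the Trh level was not tested. Hypothalamic peptide genes were low in most libraries, with median values of 0.0643 CPM for Hcrt and 0.80 CPM for Pmch, and peaked in KI STR 3 at 29.1 and 195 CPM. Trh in that library was 21.9 CPM. Oxt, another of these genes, peaked at 34.8 CPM in KI STR 1, which also held the highest Trh of the 36 libraries, 25.7 CPM. Of the other genes of the hypothalamic list, Avp peaked in KI STR 3 at 18.7 CPM. Hdc peaked in KI SN 3 at 54 CPM, Otp in KI VTA 1 at 16 CPM, and Sim1 and Agrp in WT SN 3 at 4.59 and 0.555 CPM. WT STR libraries scored -0.83 to -0.05 on the list, WT SN -0.69 to 0.99 and WT VTA -0.44 to 1.16. The part of hypothalamic tissue in the Trh values was not tested.

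In KI, Trh was again highest in STR, at 25.7, 8.46 and 21.9 CPM. The KI SN libraries held 9.07, 7.13 and 6.94 CPM, all above the 3 WT SN libraries, a log2 fold change of 1.15 (SE 0.309). The difference was 1.01 (SE 0.403) against KI SN 3 alone, the only KI SN library with dopamine markers at the WT level. In Nac every KI library (2.10, 0.804 and 6.03 CPM) lay below every WT library (-1.57, SE 0.716). Without the 3 Nac libraries low in striatal markers, 1 KI library at 6.03 CPM stood against 2 WT libraries at 6.55 and 13.3 CPM (-0.75, SE 0.500). In HP, KI HP 1 and KI HP 3 held 0.309 and 0.609 CPM, inside or near the WT range, and KI HP 2, the library with striatal markers, held 4.38 CPM. Trh counts in HP were too low for the count fit.

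Trhr, the G protein-coupled receptor of the peptide, lies on chromosome 15 between 44195924 and 44235912 (gene 22045). In WT it was lowest in STR, where its ligand was highest, at 1.04, 1.81 and 0.683 CPM. Its means were highest in Nac, at 9.52, 7.91 and 18.5 CPM, where Trh was also second to STR. The other 4 WT regions overlapped one another between 3.9 and 15 CPM, and none of their libraries fell into the STR range. The Pearson correlation of Trh and Trhr over all 36 libraries, which share regions and dissections, was 0.12 on log2 CPM, and 0.04 over the 28 that passed their own markers.

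Between genotypes Trhr was lower in KI PFc, at 1.87, 3.33 and 3.48 CPM against 5.49, 8.21 and 10.7 CPM in WT (-1.47, SE 0.322). The groups did not overlap, and the value was -1.24 (SE 0.283) without KI PFc 1. In STR the order was the reverse: KI libraries held 5.82, 3.90 and 3.05 CPM, all above WT (1.86, SE 0.404, and 2.05, SE 0.408, without KI STR 3). In HP the 3 KI libraries spread over 1.17, 22.8 and 0.271 CPM against 4.80, 5.54 and 9.49 CPM in WT. The fold change there was 0.31 (SE 1.25) with KI HP 2 and -3.14 (SE 0.488) without it, so the 2 KI libraries with hippocampal markers both lay below all WT libraries. In SN the highest Trhr value of all 36 libraries, 27.9 CPM in KI SN 1, came from a library low in dopamine markers. The fold change was 1.27 (SE 0.624) with it and KI SN 2, and -0.36 (SE 0.441) with KI SN 3 alone. In VTA and Nac the fold changes were -0.38 (SE 0.573) and -0.48 (SE 0.666), and both turned positive, at 0.36 (SE 0.392) and 0.27 (SE 0.426), without the libraries low in their own markers.

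The deiodinase genes both lie on chromosome 12, Dio2 between 90724552 and 90739038 (gene 13371) and Dio3, a gene without introns that is imprinted in mammals, between 110279230 and 110281097 (gene 107585). Both enzymes carry selenocysteine, read from a TGA codon that would otherwise end translation. The windows around these codons in the GENCODE M21 transcripts are shown because a library of messenger RNA counts the transcript whether or not this codon is read through. Capitals mark the TGA, at codons 130 and 263 of Dio2 and codon 170 of Dio3:

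Dio2 codon 130, chr12:90729793-90729855: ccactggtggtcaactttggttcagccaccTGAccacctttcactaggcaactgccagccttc
Dio2 codon 263, chr12:90729412-90729456: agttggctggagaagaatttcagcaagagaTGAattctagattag
Dio3 codon 170, chr12:110279709-110279771: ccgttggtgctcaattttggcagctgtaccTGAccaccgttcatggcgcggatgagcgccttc

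Dio2 was highest in PFc. The WT PFc libraries held 192, 172 and 75.9 CPM, and WT HP held 61.7, 80.7 and 55.1 CPM. WT STR (46.3, 25.9 and 52.7 CPM) and WT SN (32.0, 65.7 and 34.7 CPM) overlapped at the low end. In Nac and VTA 1 library each lay apart from its pair: WT Nac 2, with dopamine markers, held 34.9 CPM against 109 and 127 CPM, and WT VTA 3, with striatal markers, held 74.3 CPM against 26.6 and 33.4 CPM. KI followed the same ends of the order, with PFc at 101, 239 and 277 CPM and STR at 34.5, 67.6 and 43.9 CPM.

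Dio2 means were higher in KI than in WT in all 6 regions. The log2 fold change was 0.56 (SE 0.274) in HP, 0.50 (SE 0.439) in PFc, 0.07 (SE 0.498) in Nac, 0.24 (SE 0.315) in STR, 1.01 (SE 0.311) in SN and 0.44 (SE 0.398) in VTA. The groups separated in SN alone, where KI held 67.0, 92.2 and 107 CPM against at most 65.7 CPM in WT, and KI SN 3 alone gave 1.28 (SE 0.395). Without the libraries low in their own markers the Nac value turned to -0.25 (SE 0.141) and the VTA value rose to 1.02 (SE 0.182), with KI VTA at 72.6, 47.6 and 62.5 CPM above the remaining WT VTA libraries. The score of astrocyte markers, cells that are a main site of Dio2, was also higher in every KI than in every WT library in 3 regions: HP (7.62 to 7.78 in WT and 7.82 to 8.34 in KI), STR (7.94 to 8.06 and 8.09 to 8.38) and VTA (8.10 to 8.28 and 8.66 to 9.07). In PFc the groups met at 7.58 (7.36 to 7.58 and 7.58 to 8.17). They overlapped in Nac (8 to 8.17 and 8.03 to 9.24) and in SN (8.50 to 8.83 and 7.78 to 9.03). The 9.03 in SN was that of KI SN 3, above every WT SN library. Its score of tanycyte markers was 2.90, against 0.68 to 2.38 in WT SN. The part of either cell type in the Dio2 values was not tested.

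Dio3 was the scarcest gene of the set, with a median of 0.868 CPM over 36 libraries and from 1 to 372 counts per library. In WT it was high in HP, at 5.15, 3.03 and 5.37 CPM, and in PFc, at 1.63, 3.05 and 5.82 CPM, which overlapped. It was low in SN, at 0.167, 0.557 and 0.202 CPM, and in STR, at 0.767, 0.517 and 0.105 CPM. WT VTA 3 held 9.92 CPM against 0.214 and 0.375 CPM in the other VTA libraries, and WT Nac 2 held 0.0534 CPM, a single count, against 2.07 and 6.70 CPM. These are the WT libraries that carry markers of another region.

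The widest gap between genotypes lay in SN, where KI libraries held 24.6, 7.81 and 2.25 CPM (372, 126 and 35 counts) against 3, 10 and 4 counts in WT. All KI values lay above all WT values, a log2 fold change of 5.20 (SE 0.979). With KI SN 3 alone it was 2.85 (SE 0.672). The 2 highest KI values came from the libraries without dopamine markers, and KI SN 1 lay above every HP library of either genotype, whose highest value was 5.91 CPM. In HP the KI libraries held 0.742, 5.91 and 0.406 CPM, and the fold change was -0.92 (SE 0.890) with KI HP 2 and -2.94 (SE 0.405) without it. In PFc the KI libraries held 0.970, 2.07 and 1.47 CPM and overlapped WT (-1.19, SE 0.495). STR did not separate either, with 0.604, 0.714 and 0.176 CPM in KI (0.14, SE 0.706). In VTA counts were too low for the fit, and KI held 0.127, 0.689 and 0.485 CPM. In Nac the fold change was -0.42 (SE 1.36), and 0.11 (SE 0.754) without the 3 libraries low in striatal markers.

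RefSeq's promoter table for GRCm38.p6, which gives the 250 bases before and the 50 after each start, holds 4 of the 7 genes. The Dio2 and Dio3 promoters are shown side by side because the 2 enzymes act in opposite directions on the hormone and had different regional orders. The cyclic AMP response element TGACGTCA, searched on both strands, occurs in 588 of 32851 promoters (1.79%), and once in that of Dio2, in capitals. The receptor half-site AGGTCA, also searched on both strands, occurs in 16.3% of promoters and in neither of these. The Trh promoter and 1 of the 2 Thrb promoters hold a single AGGTCA each, and none holds 2 copies in tandem spaced by 4 bases. The half-site in the Trh promoter is in capitals below, as its reverse complement. GC content was 44.7% for Dio2, 69% for Dio3 and 67% for Trh, against a median of 52.7%:

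Dio2 promoter, minus strand, chr12:90738989-90739288: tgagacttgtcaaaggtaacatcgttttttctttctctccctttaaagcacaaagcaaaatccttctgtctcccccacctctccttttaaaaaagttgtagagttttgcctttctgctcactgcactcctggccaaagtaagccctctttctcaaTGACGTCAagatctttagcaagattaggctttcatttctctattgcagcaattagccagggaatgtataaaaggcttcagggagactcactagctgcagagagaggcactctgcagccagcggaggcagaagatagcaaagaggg
Dio3 promoter, plus strand, chr12:110278980-110279279: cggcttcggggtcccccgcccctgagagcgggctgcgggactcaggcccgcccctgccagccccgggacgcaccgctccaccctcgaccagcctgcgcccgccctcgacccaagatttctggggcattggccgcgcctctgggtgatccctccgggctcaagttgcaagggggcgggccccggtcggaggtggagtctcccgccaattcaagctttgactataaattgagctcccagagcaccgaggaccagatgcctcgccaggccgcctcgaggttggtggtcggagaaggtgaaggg
Trh promoter, minus strand, chr6:92244601-92244900: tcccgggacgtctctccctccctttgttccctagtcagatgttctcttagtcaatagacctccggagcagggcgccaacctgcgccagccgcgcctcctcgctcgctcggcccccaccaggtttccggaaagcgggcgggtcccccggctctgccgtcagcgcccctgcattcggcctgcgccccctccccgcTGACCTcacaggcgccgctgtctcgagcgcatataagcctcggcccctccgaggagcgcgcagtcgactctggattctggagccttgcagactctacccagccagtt

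Crym lies on chromosome 7 between 120186380 and 120201989 (gene 12971). In WT its mean was highest in HP, at 397, 233 and 302 CPM. PFc held 98.0, 143 and 173 CPM. STR held 153, 70.0 and 40.5 CPM and overlapped PFc, while SN held 6.72, 25.5 and 5.09 CPM. WT VTA 3 held 302 CPM against 10 and 7.34 CPM, and WT Nac 2 held 1.66 CPM, the lowest of 36 libraries, against 155 and 249 CPM. With WT Nac 2 the Nac mean was 135 CPM, close to 138 CPM in PFc, and without it 202 CPM, so which of the 2 came next to HP rests on that library. The KI VTA libraries, all with dopamine markers, held 5.14, 9.25 and 7.63 CPM and overlapped WT VTA 1 and 2.

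In SN the KI libraries held 514, 643 and 56.7 CPM, all above WT, a log2 fold change of 5.03 (SE 1.03). With KI SN 3 alone it was 2.19 (SE 0.768), and that library's 56.7 CPM came with a striatal score of 5.36 against 3.31 to 3.37 in WT SN. Nac and STR share those markers. Crym was 87.9 ± 58.5 CPM (SD, n = 3) in WT STR, and 155 and 249 CPM in WT Nac 1 and 3, which passed on them. The share of striatal tissue in the SN difference was not tested. In VTA the fold change was -3.87 (SE 1.47) with WT VTA 3 and -0.24 (SE 0.250) without it. In Nac it was 0.77 (SE 1.70), and 1.13 (SE 0.297) without 3 libraries, where 1 KI library at 452 CPM stood against WT at 155 and 249 CPM. HP, PFc and STR overlapped, at -0.05 (SE 0.414), -0.52 (SE 0.248) and -0.80 (SE 0.463).

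**Figure D2:**
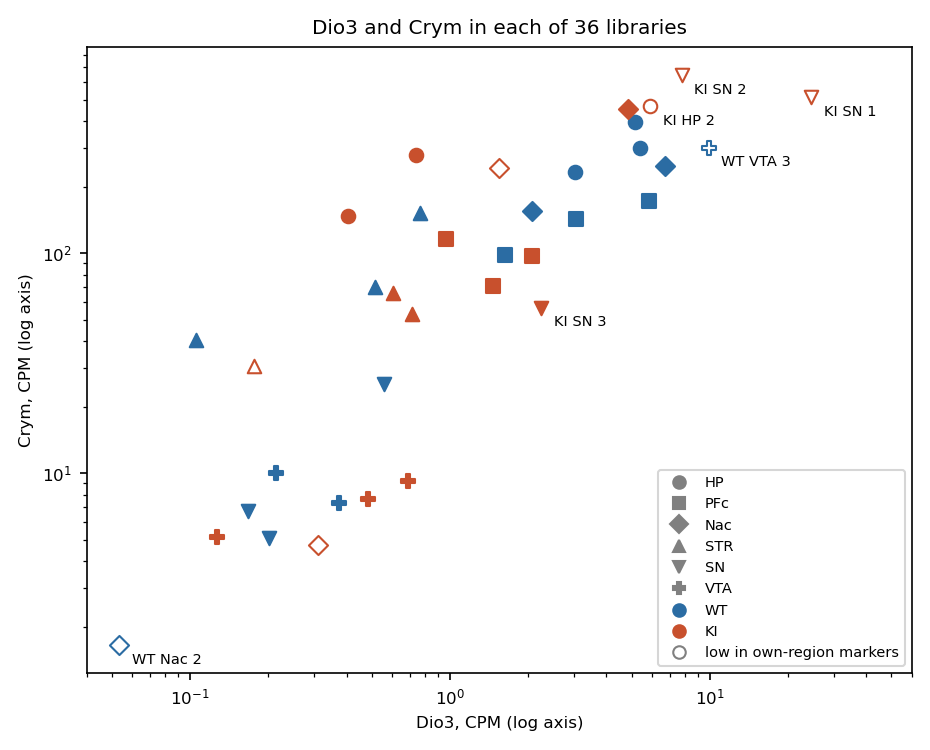
Dio3 (horizontal) against Crym (vertical), both in CPM on log axes, 1 point per library for 36 libraries; shape gives the region, colour the genotype, and open points are libraries low in markers of their own region. KI SN 1, KI SN 2, KI HP 2 and WT VTA 3 sit at the upper right among HP and Nac libraries, and WT Nac 2 at the lower left, at 0.0534 and 1.66 CPM.

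Dio3 and Crym were the pair of the set that moved together most closely, as the plot of one against the other shows, with a Pearson correlation of 0.83 over 36 libraries and 0.78 over the 28 that passed their own markers. Trhr and Dio3 had 0.58 over 36 and 0.51 over 28. Dio2 and Dio3, which act against each other on the hormone, had 0.46 and 0.51. Trh had negative values with the other 5 genes apart from Trhr, from -0.12 with Dio3 to -0.49 with Thra. These describe libraries that share regions and dissections and carry no p-value.

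Thra, on chromosome 11 between 98740776 and 98769006 (gene 21833), was the most abundant of the 7 and the least variable, with 425 to 1537 CPM in 36 libraries. WT HP held 1264, 1109 and 1065 CPM and WT PFc 884, 1250 and 1233 CPM. The remaining WT regions were lower: SN at 613, 678 and 467 CPM and STR at 602, 552 and 425 CPM overlapped, and VTA held 554, 557 and 961 CPM. In Nac, WT libraries held 847, 516 and 921 CPM.

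Thra stood out in SN, where KI libraries held 1362, 1174 and 1169 CPM against at most 678 CPM in WT, a log2 fold change of 1.07 (SE 0.197). Unlike Dio3 and Crym, KI SN 3 was as high as the KI libraries without dopamine markers (1.0, SE 0.253, with it alone). The fold change was above 0 in 4 further regions, at 0.16 (SE 0.128) in HP, 0.33 (SE 0.176) in PFc, 0.42 (SE 0.346) in Nac and 0.27 (SE 0.146) in STR, and below 0 in VTA at -0.22 (SE 0.241). Without WT VTA 3 the VTA value was 0.11 (SE 0.0978).

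The gene makes a receptor, alpha 1, that binds the hormone, and a splice form, alpha 2, that does not. The 2 coding sequences are identical for 1111 bases from the start codon and then part, leaving 122 bases in alpha 1 and 368 in alpha 2. The place where they part is shown because the transcript estimates below depend on reads past it. The last 30 shared bases are in lower case and the next 60 in capitals, and in alpha 2 the junction spans an intron:

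Thra alpha 1 (NM_178060), chr11:98764377-98764466: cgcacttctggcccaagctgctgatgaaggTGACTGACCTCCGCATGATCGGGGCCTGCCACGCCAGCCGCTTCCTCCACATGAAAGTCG
Thra alpha 2 (NM_001313983), chr11:98764377-98768217: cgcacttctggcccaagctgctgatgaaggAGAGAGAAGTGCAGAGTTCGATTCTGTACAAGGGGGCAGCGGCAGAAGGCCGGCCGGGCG

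In the deposited transcript values, which are scaled for transcript length (TPM), alpha 2 held 89.5% to 97.7% of Thra in every one of the 36 libraries. Alpha 1 held 0% to 6.40%, with a median of 2.41%, and was listed at 0 in 2 libraries, WT VTA 2 and KI PFc 1. The remaining model, XM_030245916, held 1.96% to 4.45%. The alpha 1 share was 4.93% ± 1.29 (SD, n = 3) in WT PFc and 1.34% ± 1.54 (SD, n = 3) in WT VTA. In SN it was 2.04% ± 1.82 in WT and 1.59% ± 0.834 in KI (SD, n = 3 each), and these overlapped, so the higher Thra level of KI SN came with alpha 2 at 96.1% ± 0.879 (SD, n = 3). On the genome the last 1075 bases of the span of the alpha 2 model, part of them intron, overlap Nr1d1, a clock gene on the other strand. Alpha 1 overlaps none. The sources used here do not say whether counting used strand, so Thra and Nr1d1 reads there cannot be told apart and the shares are uncertain. Nr1d1 was far lower, at 25.5 to 78.4 TPM as group means against 426 to 1112 TPM for Thra.

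**Figure D3:**
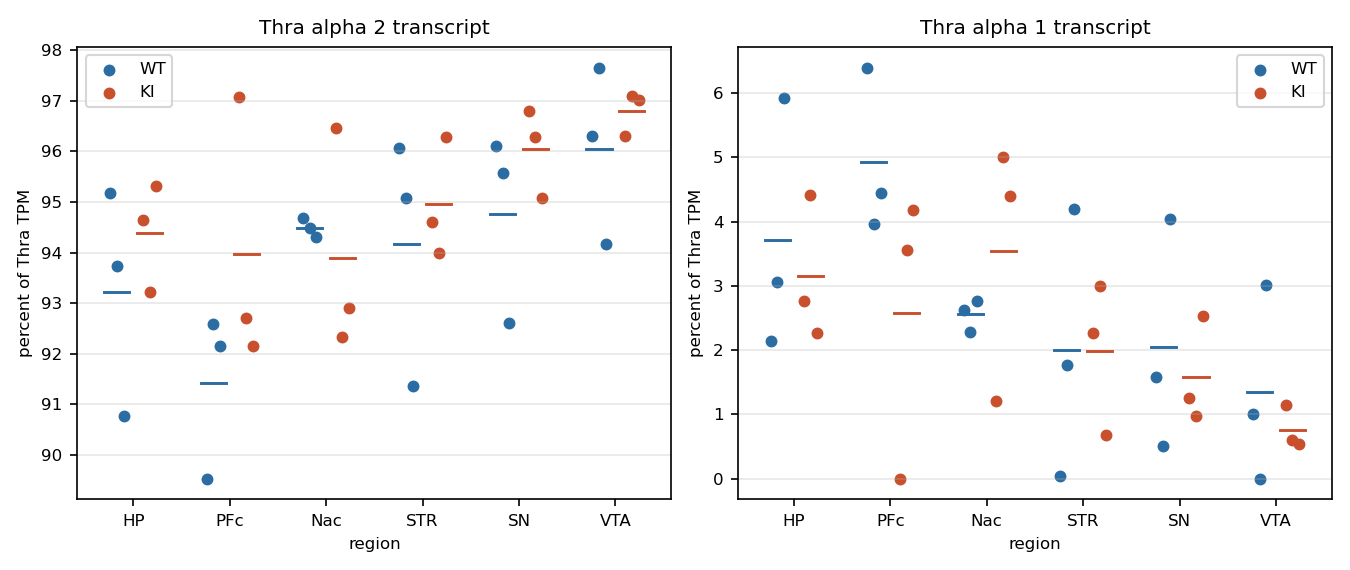
Percent of Thra TPM (vertical) given to the alpha 2 and alpha 1 transcripts in each library, by region (horizontal), WT blue and KI orange, with a line at the mean of 3 libraries. Vertical axes differ and the alpha 2 axis does not start at 0; alpha 2 holds at least 89.5% and alpha 1 at most 6.40% in each library.

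Thrb, on chromosome 14 between 17659225 and 18040097 (gene 21834), was highest in PFc, at 97.9, 84.3 and 90.0 CPM in WT. Next were HP at 28.7, 47.4 and 50.3 CPM and Nac at 49.1, 15.6 and 43.2 CPM, which overlapped. STR held 22.1, 20.1 and 23.1 CPM, SN 16.8, 36 and 17.9 CPM and VTA 12.5, 13.5 and 49.0 CPM. KI PFc held 32.1, 76.0 and 71.8 CPM, all below WT (-0.58, SE 0.294), and the value without KI PFc 1, the lowest, was -0.28 (SE 0.103). The KI VTA libraries were the most even, at 12.9, 11.9 and 13.7 CPM. The VTA fold change was -0.97 (SE 0.539) with WT VTA 3 and -0.01 (SE 0.127) without it. In SN it was 0.64 (SE 0.378), and -0.11 (SE 0.458) with KI SN 3 alone. Of 15 listed Thrb transcripts the model XM_006517967 took the largest share of counts over the 36 libraries, 32.1%, and the beta 1 form NM_001113417 took 27.4%. The pituitary and sensory form beta 2, NM_009380, had a count in 1 library. The XM models were not assigned to beta 1 or beta 2, so these values do not give the share of either form.

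**Figure D4:**
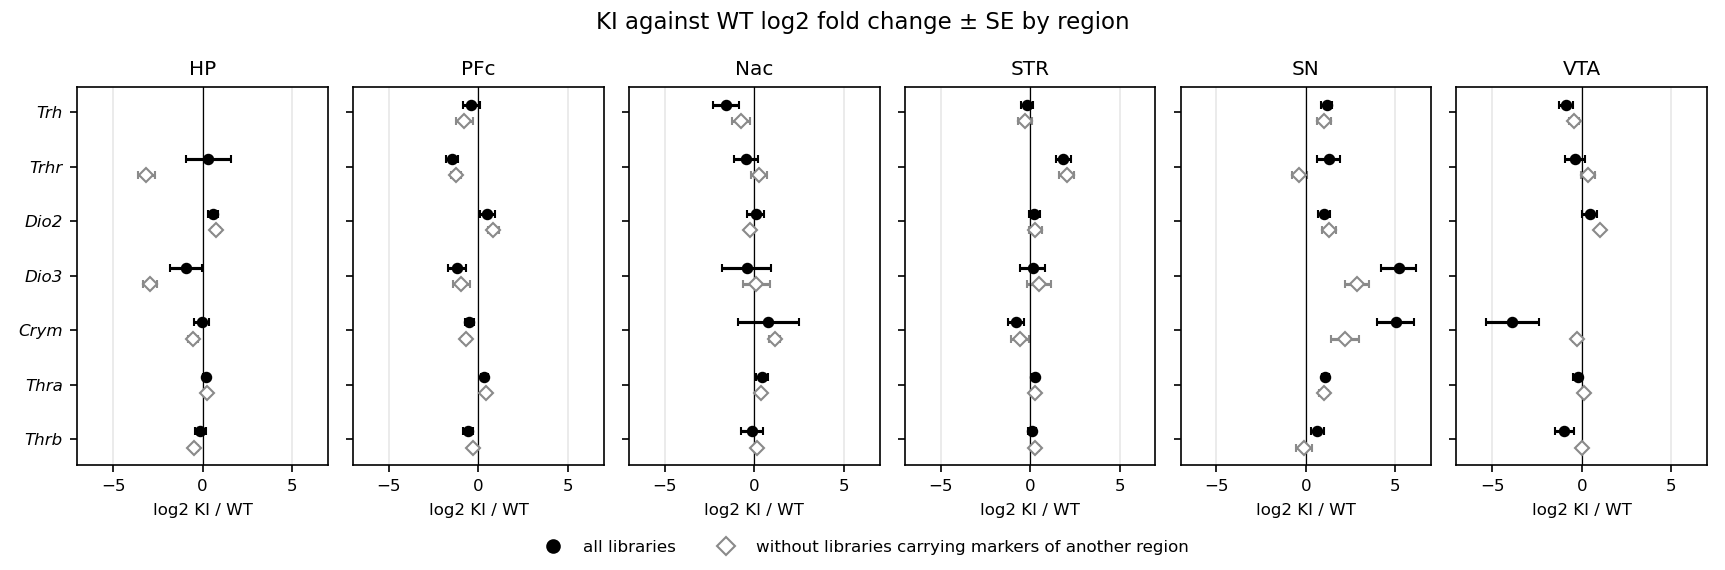
Log2 fold change of KI over WT (horizontal) for each gene (vertical) in 6 panels, 1 per region, with bars of ± 1 SE from the count fit. Filled circles use all 6 libraries and open diamonds leave out those carrying markers of another region; the Crym values of VTA go from -3.87 to -0.24, and those of Thra in SN from 1.07 to 1.0.

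Counted over the set, KI and WT did not overlap for 5 of 7 genes in SN (Trh, Dio2, Dio3, Crym and Thra, all higher in KI), where 23.9% of all genes did not overlap. The count was 2 of 7 in PFc (Trhr and Thrb, against 28.5% of all genes), 1 of 7 in Nac (Trh, 4.19%) and 1 of 7 in STR (Trhr, 17.7%). It was 0 of 6 in HP (23.9%) and 0 of 6 in VTA (23.4%), where 1 gene each was too low to test. The median log2 fold change of the set was 1.15 in SN and -0.52 in PFc, against 0.02 and 0.03 over all genes. With KI SN 3 alone the SN median was 1.01, and that library lay above all WT SN libraries for the same 5 genes; without KI PFc 1 the PFc median was -0.70. Since values of these comparisons chose the set, the counts describe it and support nothing further.

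Levels across the 6 regions were tested with edgeR's quasi-likelihood F test, adjusted over all genes, for Trh, Dio2, Thra and Thrb. For Trhr, Dio3 and Crym the PFc or SN values that chose the set enter the regional comparison too, so their regional levels stand as a description. In the 18 WT libraries 48% of 15094 genes passed, and so did the 4 genes: Trh (adjusted p = 1.13e-05), Thra (0.00434), Thrb (0.0101) and Dio2 (0.0208). Without WT Nac 2 and WT VTA 3, 70% of genes passed, and again the 4, with the highest adjusted p at 0.000466 for Dio2. Without the libraries numbered 1, the edgeR calls of Dio2 (0.465), Thra (0.0977) and Thrb (0.184) were lost, and that of Trh was not. With shares this high a regional difference does not set these genes apart from others.

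In the 18 KI libraries 12.6% of genes passed, and 3 of the 4 did: Thra (edgeR adjusted p = 0.00364), Dio2 (0.0172) and Trh (0.0242), while Thrb (0.0504) missed the threshold. KI SN values of Thra, Dio2 and Trh, all above WT SN, enter this test. The set was chosen with earlier results known, so it is not independent of that choice. Without the 6 KI libraries low in their own markers 50.5% of genes passed and the 4 did, Thrb with 0.00236. Leaving out all libraries of 1 number raised the adjusted p above 0.05 at least once for each of the 3, up to 0.408 for Dio2 and 0.343 for Trh. STR was highest for Trh, PFc for Thra, Dio2 and Thrb in the means of KI, and Crym and Dio3 were highest in SN, from KI SN 1 and 2. Without the 6 libraries the highest Crym and Dio3 values lay in KI Nac 3, at 452 and 4.85 CPM.

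Per length, on the deposited TPM scale, mean levels in WT regions ran from 426 to 1024 TPM for Thra, 23.9 to 640 for Crym, 13.1 to 50.8 for Dio2 and 6.84 to 31.8 for Thrb. Trh ran from 0.65 to 36, Trhr from 0.633 to 6.59 and Dio3 from 0.373 to 5.81 TPM. Without WT Nac 2 and WT VTA 3 the lowest mean was 16.3 for Crym, 9.1 for Dio2, 4.01 for Thrb and 0.34 for Dio3, in VTA each time, and the highest for Trhr was 7.61 TPM. The receptor gene Thra was above Thrb in every WT region, and the activating enzyme Dio2 above the inactivating Dio3. Trh exceeded its receptor in STR, at 36 ± 2.45 against 0.633 ± 0.240 TPM (SD, n = 3 each), and fell below it in HP, at 0.650 ± 0.306 against 3.77 ± 1.62 TPM.

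The genes most like each member over 36 libraries were found by Pearson correlation of log2 CPM among 12595 genes with a mean of at least 1. Trh was followed by Ecel1 (0.87), Ngfr (0.84) and Gtf2ird1 (0.83), and Trhr by Tcerg1l (0.90), Trim62 (0.83) and Zfp941 (0.82). Dio2 was followed by Kif5c (0.91), Slc1a2 (0.90), the main glutamate transporter of astrocytes, and Purb (0.89). For Dio3 these were Krt77 (0.90), Lypd1 (0.86) and Nap1l1 (0.85), and for Crym Icam5, Fkbp1a and Rab40b (0.96 each). For Thra they were Gna11 (0.96), Chmp1a (0.95) and Tpm3 (0.95), and for Thrb Frmd6 (0.96) and Nol4 (0.95). Over the 28 libraries that passed their own markers the values lay between 0.79 and 0.97.

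The 47 further genes of the pathway were grouped by role. In WT the edgeR F test found 7 of 8 genes of hormone entry and carriage to differ across regions, where 48% of all genes did, 4 of 8 tested genes of hormone and iodine conversion, 8 of 10 receptor partners, 8 of 10 tested genes of the thyrotropin axis and TRH processing, and 7 of 9 hormone responsive genes of brain. Without WT Nac 2 and WT VTA 3 the counts were 7, 5, 8, 9 and 8, against 70% of all genes. In KI they were 2, 0, 1, 1 and 2, against 12.6% of all genes, and 5, 5, 7, 8 and 8 without the 6 libraries, against 50.5%. Slco1c1, the thyroxine transporter of the blood-brain barrier, was highest in WT STR at 121 ± 7.15 CPM and lowest in WT SN at 48 ± 14.3 CPM (SD, n = 3 each). Ttr, the thyroxine carrier made by choroid plexus, held 12405 ± 2801 CPM in WT STR and 25.0 ± 21.2 CPM in WT SN (SD, n = 3 each), and is itself one of the markers in the choroid plexus score. Klf9, a classical target of the hormone receptors, was higher in WT HP (245 ± 29.5 CPM) and PFc (236 ± 24.2 CPM) than in SN (111 ± 20.3 CPM), while Hr, another, was lowest in HP at 15.7 ± 5.07 CPM and highest in STR at 39.3 ± 9.44 CPM (SD, n = 3 each).

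Between genotypes edgeR called no gene in any region (0% of 14144 to 14658 tested). An unadjusted p under 0.05 was reached by 146 genes (Nac), 1580 (STR), 1879 (VTA), 2012 (HP), 2531 (SN) and 2562 (PFc). DESeq2 called 0.0112% of genes in Nac, 1.25% in VTA, 1.38% in STR, 2.2% in HP, 2.74% in PFc and 6.26% in SN, and the pathway genes named next are DESeq2 calls. Of the tested pathway genes it called 0 of 43 (Nac), 4 of 42 (VTA), 2 of 44 (STR), 2 of 43 (HP), 4 of 43 (PFc) and 6 of 44 (SN). The median log2 fold change of the 47 lay between -0.15 in VTA and 0.21 in SN.

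Of the hormone entry genes, Ttr rose in SN by a log2 fold change of 5.48 (DESeq2 adjusted p = 0.0203), with groups that overlapped: KI held 12.7 to 2958 CPM, and KI SN 1, the highest, had a choroid plexus score, which includes Ttr, of 5.06 against 0.34 to 1.4 in WT SN. The edgeR value was 0.184. Slco1a4, an organic anion transporter of the blood-brain barrier, rose in VTA from 53.4 ± 10 to 108 ± 6.27 CPM (SD, n = 3 each; 1.01, DESeq2 adjusted p = 0.000398, edgeR 0.355). Without WT VTA 3, where edgeR called 5.72% of all genes, it called Slco1a4 (1.08, edgeR adjusted p = 0.0243) and Slco1c1 (0.69, 0.0229). In PFc without KI PFc 1, where edgeR called 3.85%, it called Slco1a4 (0.87, edgeR adjusted p = 0.0468) and Slc7a5 (0.42, 0.0483), a large amino acid transporter that also carries the hormone. In Nac, where DESeq2 called none of the list, all 8 entry genes had a higher mean in KI (median log2 fold change 0.55, against 0.02 over all genes, of which 53.6% had a higher mean), and 3 of 8 did not overlap, against 4.19% of all genes. Without the 3 Nac libraries low in striatal markers, which leaves 1 KI library, the median was 0.33.

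Of the 9 conversion genes DESeq2 called Usp33 in PFc and no other in any region. Usp33, a deubiquitinase known to act on the Dio2 protein, fell there from 144 ± 6.64 to 107 ± 6.25 CPM (SD, n = 3 each; -0.43, DESeq2 adjusted p = 0.0427, edgeR 0.208). Of the receptor partners, Rxrg and Ncor1 rose in SN. Rxrg, a retinoid X receptor, went from 5.68 ± 1.29 to 50.1 ± 51.1 CPM (SD, n = 3 each; 3.14, DESeq2 adjusted p = 4.96e-05, edgeR 0.132), with 109 CPM in a single KI library as the top. Its level was 54.2 ± 42.4 CPM in WT STR and 40.5 ± 31.6 CPM in WT Nac (SD, n = 3 each). Ncor1, the corepressor bound by unliganded receptors, went from 102 ± 12 to 154 ± 9.02 CPM (0.59, DESeq2 adjusted p = 0.0279, edgeR 0.154). KI SN 3 alone makes a group of 1 library that is assumed to vary like the WT group. With it the log2 fold change was 3.96 for Ttr, 0.50 for Ncor1 and 2.16 for Rxrg. The striatal score of KI SN 3 was 5.36, against 3.31 to 3.37 in WT SN. The part of striatal tissue in its Rxrg value was not tested.

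Genes that process the TRH precursor moved in different directions. Pcsk1, the prohormone convertase that cuts it, fell in PFc from 90.3 ± 26.2 to 42.1 ± 4.44 CPM (SD, n = 3 each; -1.09, DESeq2 adjusted p = 0.00181, edgeR 0.208). It rose in STR from 17.8 ± 1.75 to 34.0 ± 6.14 CPM (0.94, DESeq2 adjusted p = 0.000633, edgeR 0.259). Pcsk2, the second convertase, fell in VTA (-0.60, DESeq2 adjusted p = 0.0254, edgeR 0.355), and Cpe, the carboxypeptidase that trims the cut ends, rose in SN (0.78, DESeq2 adjusted p = 0.0159, edgeR 0.160). With KI SN 3 alone, under the same assumption, Cpe was at 0.94 (DESeq2 adjusted p = 0.0613).

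Of the hormone responsive genes, Mbp, which encodes myelin basic protein, rose in HP, VTA and STR. In HP it went from 1600 ± 312 to 6250 ± 2300 CPM (SD, n = 3 each; 1.97, DESeq2 adjusted p = 3.72e-07, edgeR 0.304), and without KI HP 2, where edgeR called 0.42% of all genes, edgeR called it too (1.91, adjusted p = 0.0252). In VTA the log2 fold change was 1.21 (DESeq2 adjusted p = 0.00255, edgeR 0.355) and in STR 1.02 (0.0195, edgeR 0.326). Mbp is one of the markers in the oligodendrocyte score, which was 7.47 to 7.76 in WT HP and 8.40 to 8.78 in KI HP, and 9.16 to 9.54 in WT VTA and 9.83 to 10.09 in KI VTA. In STR the score overlapped (9.21 to 9.56 in WT and 9.52 to 9.71 in KI). In the edgeR fit of counts summed over regions, the genes of this list differed. They ran from -0.17 (SE 0.148) for Ermn and 0.05 (SE 0.120) for Cnp to 0.75 (SE 0.137) for Mobp and 1.09 (SE 0.163) for Mbp. The part of oligodendrocyte content in the Mbp values was not tested. Nrgn, a postsynaptic calmodulin-binding gene, rose in PFc (0.80, DESeq2 adjusted p = 0.0045, edgeR 0.208) and Reln, which encodes the migration signal reelin, fell (-0.62, 0.0355, edgeR 0.208). Camk4 rose in SN (1.73, DESeq2 adjusted p = 0.00925, edgeR 0.166). With KI SN 3 alone it was at 0.78 (DESeq2 adjusted p = 0.635, with the spread taken from WT). Klf9 and Hr were called in no region.

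**Figure D5:**
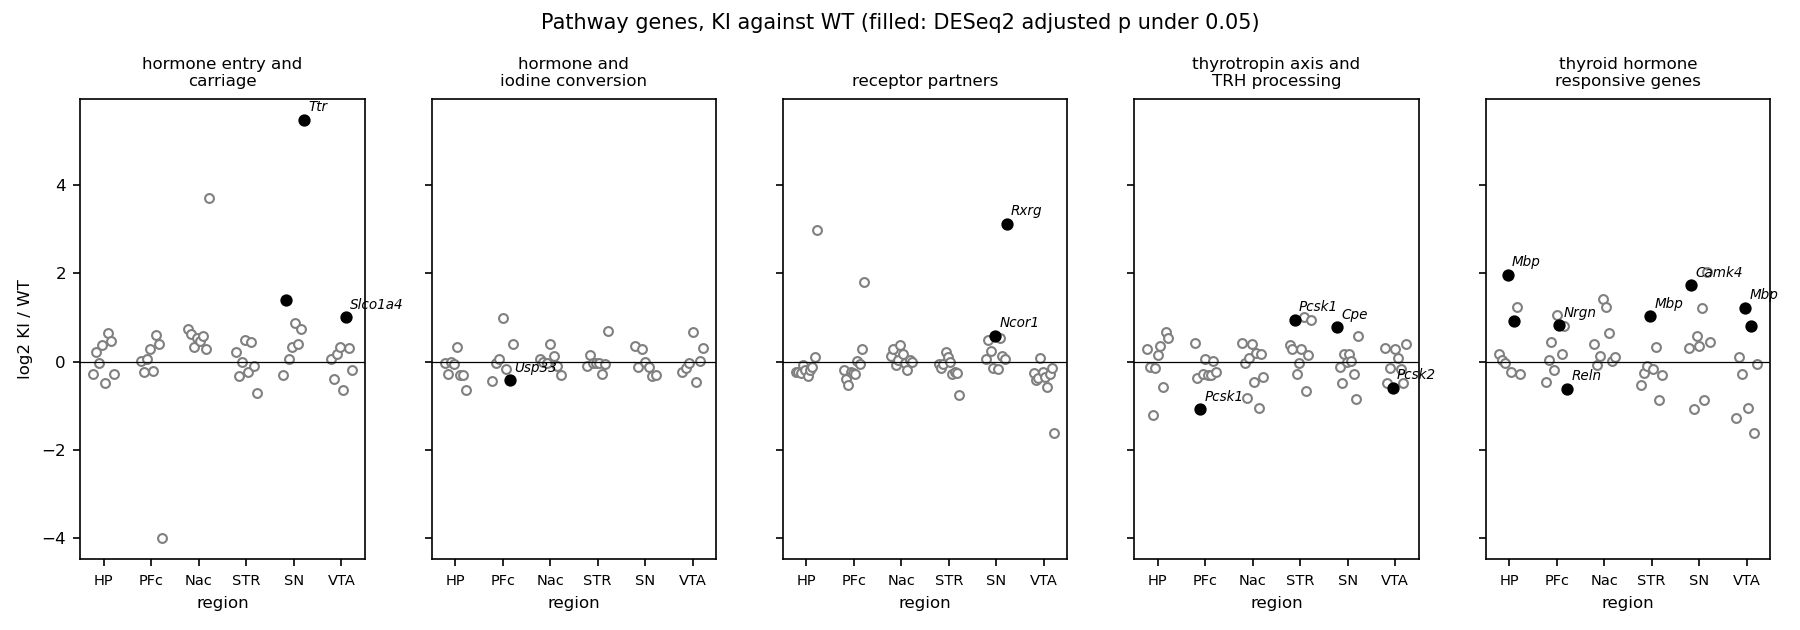
Log2 fold change of KI over WT (vertical) of each tested pathway gene by region (horizontal), 1 panel per list, 1 point per gene. Filled points are DESeq2 calls at an adjusted p under 0.05, with names for the genes described in the text, among them Ttr at 5.48 and Rxrg at 3.13 in SN; open points were not called.

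Summed over the 6 regions for each genotype and number, edgeR called 0% of 16171 genes, with a smallest adjusted p of 0.0543 and 3210 genes at an unadjusted p under 0.05. DESeq2 called 8.86%, and 9 of 45 tested pathway genes: Slco1a4 (0.63), Slc7a5 (0.37) and Slco1c1 (0.30) of the entry genes, with Cpe (0.43), Nrgn (0.39) and Mbp (1.10), rose, and Pcsk1 (-0.57), Usp33 (-0.22) and Usp20 (-0.21) fell. Their DESeq2 adjusted p ran from 1.5e-11 for Slco1a4 to 0.035 for Usp33. Among the 7 genes the sums differed by 0.33 (SE 0.0790) for Thra, 0.44 (SE 0.192) for Dio2, 0.45 (SE 0.330) for Crym, 0.26 (SE 0.538) for Dio3, 0.07 (SE 0.259) for Trhr, -0.20 (SE 0.221) for Trh and -0.24 (SE 0.188) for Thrb. With region as a term in all 36 libraries, in place of the sums, Dio3 was already at -0.37 and Crym at -0.1. The same term was fitted in the 28 libraries that passed their own markers, KI PFc 1 and KI SN 3 among them. There Thra was at 0.35 (SE 0.0846), Dio2 at 0.63 (SE 0.189) and Crym at 0.07 (SE 0.286). Dio3 and Trhr were at -0.31 (SE 0.436) and -0.32 (SE 0.376). In that fit the genes of the astrocyte list ran from 0.16 (SE 0.112) for Slc4a4 and 0.21 (SE 0.0914) for Gja1 to 0.53 (SE 0.117) for Slc1a2 and 0.68 (SE 0.158) for Gfap. The part of astrocytes in the Dio2 value was not tested. Of the pathway genes above, Nrgn (0.28, edgeR adjusted p = 0.459) and Pcsk1 (-0.49, 0.0900) missed the threshold in the fit of the 28 libraries. That fit called 2619 of all genes, and 9 of the 45 tested pathway genes, where edgeR on the sums called 0%. It takes each library as separate, though the labels do not say whether libraries of 1 number share an animal.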

How the data were processed

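RNA of mouse brain regions was sequenced from SMARTER mRNA-Seq libraries, per the labels' protocols, and read against GRCm38.p6, per the submitters' processing notes; the aligner, the counter and any use of strand were not given in the sources used here. Estimated counts for genes and transcripts come as the authors deposited them; 9.9% of gene values are not whole, and all were rounded before testing. The deposited TPM values, scaled by the authors for length and depth, gave levels between genes and transcript shares. Log2 fold changes and q-values of the authors' own comparisons were deposited in tables whose method is not given in the sources used here, and only their log2 values for the 7 genes are used. A further 144 columns of per-sample values were not used. No row lacked a gene name, 18969 identifiers matched RefSeq's gene table, and no 2 libraries held identical values.

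CPM used trimmed-mean (TMM) factors over 36 libraries, and log2 CPM a prior count of 2. Tests were edgeR 4.0.16 quasi-likelihood fits after filterByExpr with Benjamini-Hochberg adjustment over all genes and a threshold of 0.05, with DESeq2 1.42.0 as the alternative, in R 4.3.3. They covered KI against WT in each region and on sums over regions, regions within each genotype, and the genotype by region term. The fits were tested on simulated counts. The alternatives were other normalizations, no filter, a replicate block, leaving libraries out, and leaving out those with markers of another region; DESeq2 without those libraries was added after seeing the data.

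The 7 genes, the pathway and marker lists and the rules were chosen with earlier results of these data known. The text names the 7 genes, the pathway genes past the test (those of DESeq2 where edgeR called none) and the 3 genes most correlated with each member, apart from some that are not reported here. Identically numbered WT and KI libraries had correlated deviations over 0.1 in 2 of 18 pairs, and identically numbered libraries of 2 regions in 28 of 90, so numbers were not taken to pair them. Sequences came from RefSeq's promoter table (GRCm38.p6) and GENCODE M21 transcripts.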

Additional observations from a re-analysis of the deposited data

How the results depend on the processing

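Counts of genes called between genotypes depended on the tool and on the libraries. In HP, PFc, Nac, SN, VTA and STR edgeR called 0, DESeq2 called 259, 362, 2, 990, 185 and 210, and DESeq2 without libraries carrying markers of another region, chosen after seeing the data, called 860, 1470, 81, 206, 1798 and 215. Without those libraries edgeR called 60 in HP, 550 in PFc and 838 in VTA, and 0 in Nac, SN and STR. Leaving out each library in turn gave 0 to 60 in HP, 0 to 550 in PFc, 0 in Nac, 0 to 383 in SN, 0 to 838 in VTA and 0 to 2 in STR. Over regions the count was 1354 with DESeq2, 5 without a filter, 1455 with region as a term in 36 libraries, 2619 in 28 libraries, and 0 to 10 leaving out a library. Across regions in WT edgeR called 7249, and 2156 to 5897 without libraries of 1 number. In KI it called 1901, and 4273 with DESeq2, 7791 without 6 libraries, and 8 to 1977 without 1 number. The genotype by region term gave 33 with DESeq2, 8 without 8 libraries, and 0 to 1 without 1 number. The replicate block moved the SN count to 13, and in KI the adjusted p of Trh across regions to 0.0545; the numbers were not taken to pair libraries. Other normalizations kept the sign of each of the 7 genes' fold changes that had a value, except Dio2 in Nac (0.07 to -0.04 without factors). Leaving out 1 library changed 29 of 282 signs. Dio3 in WT SN, STR and VTA and Trh in HP rested on 2 to 14 counts in most libraries, so their fold changes are imprecise.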

Other observations

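For KI over WT, the authors' deposited table has a log2 fold change for both values that were too low for the fit used here: 2.34 for Trh in HP and -3.03 for Dio3 in VTA. In each, 1 library carrying striatal markers held most of the counts, KI HP 2 with 72 Trh counts against 4 to 9 in the other HP libraries, and WT VTA 3 with 174 Dio3 counts against 2 to 12 in the other VTA libraries. For the other 40 values the authors' deposited table differed from the fit by at most 0.03.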
